A study of Sus scrofa with 12 samples.

Results

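The family of miR-15, miR-16, miR-195 and miR-497 was followed through the testes of 2 pig breeds at 2 ages. The members were the listed miRNAs whose name, with or without the pig prefix ssc, is miR-15, miR-15a, miR-15b, miR-16, miR-195 or miR-497, of any strand. This rule took 14 of the 1452 miRNAs in the table. The testes came from boars castrated at 30 or 120 days of age and gave 12 small RNA libraries, 3 for each of 4 groups. Ha and Hb were Hezuo (HZ) boars, a small and early-maturing native breed of the Qinghai-Tibet Plateau, at 30 and 120 days. La and Lb were Landrace (LC) boars, a western breed used as the control, at 30 and 120 days. The labels name no allele or treatment for any group. According to the methods the RNA was taken from pooled samples. It is not settled whether each library is 1 boar, and the SDs and p-values given here measure the spread between libraries.

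The family is an old group of vertebrate miRNAs that share a seed, the bases near the 5′ end that pair with target mRNAs. It is best known for lowering cyclins, cyclin-dependent kinases and the anti-apoptotic protein BCL2, and so for slowing the cell cycle. miR-195 and miR-497 are also known from the time after birth, when they help muscle cells of the heart leave the cell cycle. Each precursor hairpin gives a 5p strand, which is the usual working strand here, and a 3p strand, most of which is commonly degraded.

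The genes lie in 3 pairs on the Sscrofa11.1 assembly as annotated by RefSeq. MIR15A (chr11:17757463-17757541) and MIR16-2 (chr11:17757606-17757684) are 64 bases apart, with no gene annotated around them. MIR15B (chr13:100083172-100083269) and MIR16-1 (chr13:100083329-100083405) are 59 bases apart within the bounds of SMC4, which encodes a subunit of the condensin complex. MIR195 (chr12:52422039-52422118) and MIR497 (chr12:52422329-52422408) are 210 bases apart within the bounds of the long non-coding RNA gene LOC102161115. Mature miR-16 can come from either of the first 2 pairs, and its counts cannot be divided between them.

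The 5 members with a pig name are shown first because they hold 1 sequence of each 5p strand. Sequences are as deposited, 5′ to 3′, with bases 2 to 8 in capitals.
ssc-miR-16: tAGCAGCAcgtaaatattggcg
ssc-miR-15a: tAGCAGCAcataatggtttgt
ssc-miR-15b: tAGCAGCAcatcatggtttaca
ssc-miR-195: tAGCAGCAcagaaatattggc
ssc-miR-497: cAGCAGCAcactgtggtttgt
All 5 have the seed AGCAGCA. Behind it miR-16 and miR-195 share the stretch aaatattgg, and the other 3 share tggttt. The miR-195 and miR-497 genes are neighbours, but their mature strands belong to different kinds by this stretch.

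The other 9 members carry no species in their names. Of these, 6 are 5p strands with the same seed. The 4 that were counted most are shown because they differ from the pig-named sequence at the 3′ end.
miR-15-x: tAGCAGCAcataatggtttgtgt
miR-16-x: tAGCAGCAcgtaaatattggaa
miR-195-x: tAGCAGCAcagaaatattggcaa
miR-497-x: cAGCAGCAcactgtggtttgtaa
The remaining 5p sequences, miR-16-z and miR-195-z, were rare. The last 3 members are 3p strands, shown because 1 of them separated the breeds, and they have other seeds.
miR-15-y: tGAATCATtatttgctgctct
miR-16-y: aCCAATATtattgtgctgcttt
miR-497-y: tCCAAACCacactgtggtgtt
No other listed miRNA had the sequence of a member. A further name outside the family, miR-457-z, is 1 edit from ssc-miR-16 and holds the same seed, so tags could be divided between them, but it had at most 4 counts in a library.

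The listed miRNAs held 6520197 to 16874633 counts in a library. Levels are in TPM from the authors, who wrote 0.01 for an uncounted miRNA, and 3 counts, the limit that a count of 0 allows, correspond to 0.158 to 0.404 TPM. Tags were amplified by PCR without molecular identifiers, so that limit covers counting error only. Fold changes come from edgeR's quasi-likelihood test on the raw counts and are log2 values of the second group named over the first, with their SE. A miRNA was called when it changed by more than 1 on the log2 scale in either direction with an unadjusted p under 0.05, and the Benjamini-Hochberg adjusted p over all miRNAs tested is given beside it. The libraries of a group differed by more than sampling noise. Hb replicate 2 stood apart from the other libraries, with the lowest TMM scaling factor (0.694). The testis identity was checked with miR-202, an abundant gonadal miRNA, whose 5 listed forms summed to between 9608 and 24405 TPM, and with miR-34c of meiotic and haploid germ cells, at 12.5 to 62.0 TPM in the libraries at 30 days. At 120 days miR-34c was at 1218, 1732 and 11014 TPM in the Hb libraries and at 9330 to 11634 TPM in Lb, so the Hb libraries also differed among themselves in this germ cell marker. The germ cell list named miR-34b, miR-34c, miR-449a and miR-449b, but only ssc-miR-34c stood for it. miR-449-y, which carries no letter, was not part of it.

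miR-16 was the most abundant member in each of the 12 libraries. By its mean over them, ssc-miR-16 ranked 49 among the 1452 miRNAs, ssc-miR-195 ranked 100, ssc-miR-15b 106 and ssc-miR-497 170. In the libraries at 30 days ssc-miR-15b, at 529 to 676 TPM, lay above ssc-miR-195, at 267 to 509 TPM. miR-15-x and ssc-miR-15a were close to each other at ranks 228 and 232. The 3p strand miR-15-y ranked 278, ahead of miR-195-x (289), miR-16-x (364) and miR-497-x (422). In Hb, however, its mean of 24.2 TPM lay below those of miR-195-x (55.3 TPM) and miR-16-x (31.3 TPM). miR-16-y, miR-497-y, miR-195-z and miR-16-z ranked 573 to 1068. Counts were found in every library for 13 of the 14, and miR-16-z was the exception. The whole family held 0.344 ± 0.00643% of the listed counts in Ha and 0.525 ± 0.152% in Hb (SD, n = 3 each). In LC it held 0.404 ± 0.0349% in La and 0.599 ± 0.08004% in Lb. At each age comparison and between the breeds at 30 days, the second group lay wholly above the first, with an exact two-sided permutation p of 0.1, the smallest that 3 against 3 libraries can give. Between Hb and Lb the shares overlapped (exact permutation p = 0.7).

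**Figure D1:**
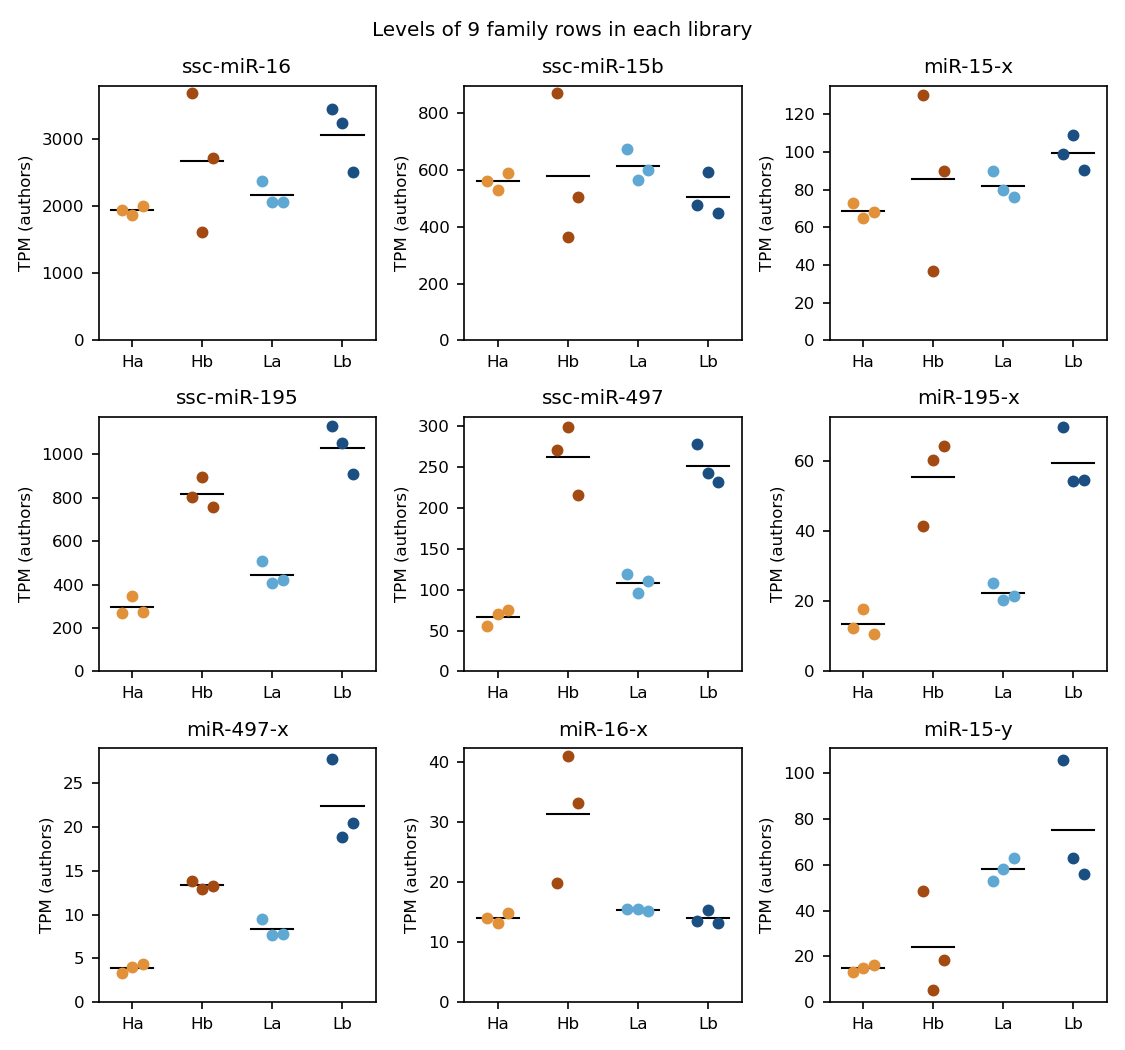
Level of 9 members in each library, as the authors' TPM on the y axis from 0, by group on the x axis (Ha and Hb, HZ at 30 and 120 days; La and Lb, LC at 30 and 120 days); each point is a library and each bar the mean of 3. The miR-195 and miR-497 forms lie higher at 120 days in both breeds, miR-15-y lies higher in LC at 30 days, and the Hb points of miR-16, miR-15b and miR-15-x are widely spread.

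miR-195 and miR-497, the neighbours in 1 gene pair, were higher at 120 than at 30 days in both breeds, in their pig-named and their longer forms. In HZ, ssc-miR-195 was at 267, 346 and 273 TPM in the Ha libraries and at 802, 895 and 759 TPM in the Hb libraries. In LC it was at 509, 408 and 420 TPM in La and at 1128, 1049 and 910 TPM in Lb. The groups did not overlap by age in either breed. The log2 fold change with age was 1.65 ± 0.29 in HZ (adjusted p = 0.000786) and 1.03 ± 0.11 in LC (adjusted p = 1.56e-05). In such bulk tissue, more cells of a type and more RNA per cell cannot be told apart.

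ssc-miR-497 was lower in level than miR-195 but moved with it. It was at 56.1, 70.1 and 74.5 TPM in Ha and at 270.3, 299 and 216 TPM in Hb. In LC it was at 119.7, 95.9 and 110.3 TPM in La and at 277.9, 243 and 231 TPM in Lb. Every library at 120 days exceeded every library at 30 days. The log2 fold change was 2.15 ± 0.32 in HZ (adjusted p = 0.000179) and 1.02 ± 0.12 in LC (adjusted p = 3.02e-05). Across the 12 libraries the log2(TPM + 1) values of ssc-miR-195 and ssc-miR-497 had a Pearson correlation of 0.972, against 0.641 for ssc-miR-195 and ssc-miR-16. These are descriptions of libraries that also share age and breed.

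The longer forms followed the same order. miR-195-x was at 12.4, 17.7 and 10.6 TPM in Ha and at 41.5, 60.2 and 64.2 TPM in Hb, and at 25.1, 20.5 and 21.4 TPM in La and 69.5, 54.2 and 54.4 TPM in Lb. Its log2 fold changes with age were 2.22 ± 0.38 in HZ (adjusted p = 0.00062) and 1.23 ± 0.16 in LC (adjusted p = 4.44e-05). miR-497-x was at 3.32, 4.06 and 4.35 TPM in Ha and at 13.9, 12.9 and 13.3 TPM in Hb, and at 9.51, 7.68 and 7.80 TPM in La and 27.7, 18.9 and 20.5 TPM in Lb. Its log2 fold changes were 1.92 ± 0.36 in HZ (adjusted p = 0.00113) and 1.24 ± 0.20 in LC (adjusted p = 0.000312). Neither form overlapped between the ages in either breed. The rare miR-195-z, at 0.370 to 1.53 TPM over all libraries, was called higher in Hb (log2 fold change 1.57 ± 0.65), but its adjusted p was 0.0781 (0.026 with all 12 libraries in 1 fit and 0.0361 without Hb replicate 1). The call was lost, with an unadjusted p of 0.0508 to 0.0831, with library size scaling, with the replicate block and without any 1 Ha library, and without Hb replicate 2 the log2 fold change was 0.97 (unadjusted p = 0.21).

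In Ha vs. Hb, 6 of the 14 members were called higher, 5 of them also with an adjusted p under 0.05, against 25.1% of all tested miRNAs called higher and 20.3% with an adjusted p as well. For 6 of the 14 every Hb library lay above every Ha library, against 23.0% of all tested. Of the members 0 were called lower, against 14.4% of all tested. The median log2 fold change of the members was 0.70, and that of all miRNAs tested was 0.32. In La vs. Lb, 4 of the 14 were called higher, all with an adjusted p under 0.05, against 26.3% of all tested and 23.2% with an adjusted p as well. For 8 of the 14 every Lb library lay above every La library, against 36.3% of all tested. Their median of 0.32 equalled that of all tested. The share of miR-195 and miR-497 in the listed counts went from 0.0431 ± 0.00598% to 0.131 ± 0.0107% in HZ (SD, n = 3 each). In LC it went from 0.0660 ± 0.00785% to 0.157 ± 0.0166%, and the ages did not overlap in either breed (exact permutation p = 0.1 each, the smallest possible).

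The LC calls of ssc-miR-195 and ssc-miR-497 sat at the fold threshold. Neither passed it with RLE scaling, with DESeq2 or with all 12 libraries in 1 fit (0.97 each in the last), and leaving out La replicate 2, Lb replicate 1 or Lb replicate 2 also brought both under it (0.91 to 0.99), while the adjusted p stayed under 0.05 in each. The summed level of the smooth muscle miRNAs miR-143 and miR-145, of which 8 of 9 listed forms were counted in all libraries, moved with age in the same way. It ranged over 22030 to 36347 TPM in Ha and 58183 to 92500 TPM in Hb. In LC the range was 20687 to 26749 TPM at 30 days and 55596 to 65214 TPM at 120 days. The sum of striated muscle miRNAs, 7 of 9 counted in all libraries, went from 132 to 283 TPM in Ha to 453 to 744 TPM in Hb, and from 108 to 202 TPM in La to 697 to 840 TPM in Lb. The epithelial sum, 7 of 13 forms counted in all libraries, was also higher at 120 days, from 210 to 268 TPM in Ha to 309 to 909 TPM in Hb and from 208 to 249 TPM in La to 590 to 720 TPM in Lb. The endothelial sum of 4 forms of miR-126 was lower, from 12672 to 15839 TPM in Ha to 11458 to 12313 TPM in Hb and from 11712 to 13364 TPM in La to 8701 to 11242 TPM in Lb. The erythroid sum was lower at 120 days in LC, from 2201 to 2468 TPM in La to 1220 to 1272 TPM in Lb, and overlapped in HZ. The miR-202 sum was lower at 120 days in HZ, from 18675 to 21867 TPM to 9608 to 17266 TPM, and higher in LC, from 15272 to 17278 TPM to 17966 to 24405 TPM. The part of these cell types, or of the germ cells marked by miR-34c, in the rise of miR-195 and miR-497 was not tested.

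**Figure D2:**
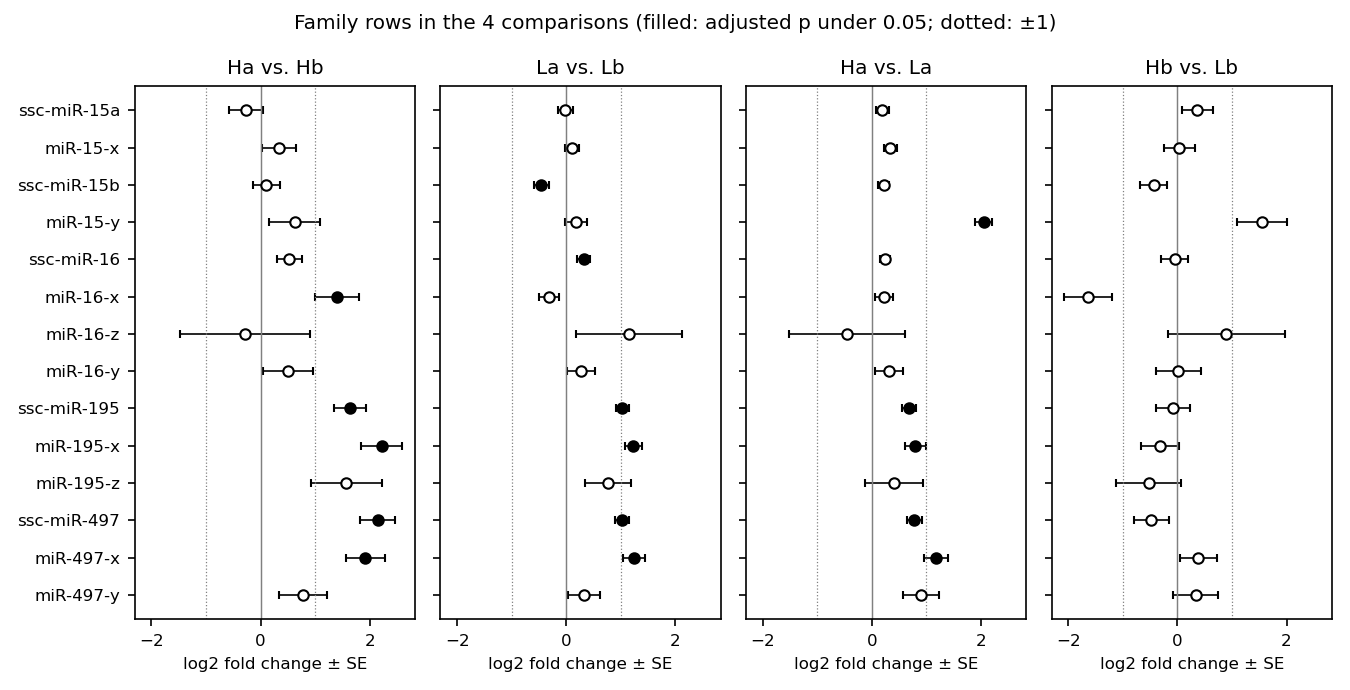
Log2 fold change of the 14 members on the x axis, with bars of 1 SE, in the 4 comparisons (the second group over the first); filled points have an adjusted p under 0.05 and dotted lines mark a log2 fold change of 1 in either direction. The miR-195 and miR-497 5p points lie to the right in both age comparisons, miR-15-y lies at 2.05 in Ha vs. La, and no point is filled in Hb vs. Lb.

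At 30 days the breeds already differed in these 2 miRNAs, with LC higher. All 3 La libraries exceeded all 3 Ha libraries for ssc-miR-195 (446 ± 54.8 against 295 ± 44.3 TPM, SD, n = 3 each) and for ssc-miR-497 (108.6 ± 12.0 against 66.9 ± 9.65 TPM). The log2 fold changes in Ha vs. La were 0.68 ± 0.13 for ssc-miR-195 (adjusted p = 0.00488) and 0.78 ± 0.14 for ssc-miR-497 (adjusted p = 0.00334). miR-195-x gave 0.80 ± 0.20 (adjusted p = 0.0184, but 0.0856 without Ha replicate 1 and 0.0750 without La replicate 1) and was called, at 1.03, without Ha replicate 2, and miR-497-x was called at 1.17 ± 0.22 (adjusted p = 0.00434). With all 12 libraries in 1 fit the adjusted p was 0.151 for ssc-miR-195, 0.114 for ssc-miR-497 and 0.212 for miR-195-x. These values share the Ha libraries with the age comparison in HZ. With miR-15-y, 2 of the 14 members were called higher in La, both with an adjusted p under 0.05, against 3.76% and 1.64% of all tested, and 5 had an adjusted p under 0.05 and a higher level in La, against 5.01% of all tested. With all 12 libraries in 1 fit 2 of the 14 had one, against 2.27% of all tested in either direction. For 9 of the 14, every La library lay above every Ha library, against 10.7% of all tested. The summed level of erythroid miRNAs (miR-144, miR-451 and miR-486, with 9 of 10 forms counted in all libraries) was also higher in La, at 2201 to 2468 TPM, than in Ha, at 1357 to 1768 TPM, and its part in these differences was not tested. The sum of miR-202 was lower in La, at 15272 to 17278 TPM, than in Ha, at 18675 to 21867 TPM, and its part was not tested either. The smooth muscle sums given above overlapped between Ha and La.

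At 120 days no 5p form of these miRNAs passed the test between the breeds. ssc-miR-195 was at 818 ± 69.4 TPM in Hb and 1029 ± 110 TPM in Lb, and all Lb libraries were higher on this scale, but the fitted log2 fold change was -0.08 ± 0.31 (adjusted p = 0.914). It was 0.37 without Hb replicate 2, whose low scaling factor raises its fitted level. ssc-miR-497 overlapped between Hb (262 ± 42.1 TPM) and Lb (251 ± 24.2 TPM), with a log2 fold change of -0.48 ± 0.32 (adjusted p = 0.415), which was 0.02 without Hb replicate 2. miR-497-x was higher in every Lb library than in every Hb library, at 22.4 ± 4.72 against 13.3 ± 0.508 TPM, and its fitted log2 fold change was 0.38 ± 0.34 (adjusted p = 0.548). The interaction, which tests whether the age change differed between the breeds and is negative where it was smaller in LC, gave -1.18 ± 0.34 for ssc-miR-497 (unadjusted p = 0.00297, adjusted p = 0.0696) and -0.67 ± 0.31 for ssc-miR-195 (adjusted p = 0.232). For miR-195-x it was -1.04 ± 0.42 (adjusted p = 0.156). The adjusted p for ssc-miR-497 was 0.0233 with DESeq2 and 0.0125 without Hb replicate 1, and that for miR-195-x was 0.015 without Hb replicate 1. A different age change in the breeds thus depended on the tool and the libraries for ssc-miR-497 and on the libraries for miR-195-x, and it did not pass for ssc-miR-195. With library size scaling the values were -0.74 for ssc-miR-497 and -0.59 for miR-195-x, and neither was called. Without Hb replicate 2 the interaction was -0.74 for ssc-miR-497, -0.28 for ssc-miR-195 and -0.67 for miR-195-x. The call of miR-195-x was also lost without Ha replicate 1 or 3, Hb replicate 3, La replicate 1, or Lb replicate 2 or 3. Together with miR-16-x, 3 of the 14 members were called lower in the interaction, against 5.92% of all tested, and 1 was called without Hb replicate 2, against 14.6% of all tested called in either direction. By edgeR, 0 of the 14 had an adjusted p under 0.05, against 1.31% of all tested, and 5 an unadjusted p under 0.05, against 21.1% of all tested, while DESeq2 gave 2, with 6.96% of all tested called at an adjusted p under 0.05, and edgeR without Hb replicate 1 gave 3, with 10.7% of all tested.

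The miR-15 and miR-16 5p strands, which make up most of the family's counts, moved less with age. ssc-miR-16 was at 1931, 1860 and 2003 TPM in Ha and at 3678, 1618 and 2708 TPM in Hb, so that Hb replicate 2 lay below every Ha library and the groups overlapped. In LC it was at 2365, 2058 and 2051 TPM in La and at 3444, 3225 and 2510 TPM in Lb, without overlap. The log2 fold change was 0.53 ± 0.23 in HZ (adjusted p = 0.0913) and 0.32 ± 0.12 in LC (adjusted p = 0.0438). In HZ the adjusted p was 0.00374 with DESeq2, 0.0378 with edgeR's filterByExpr, 0.0195 with all 12 libraries in 1 fit and 0.0051 without Hb replicate 2. The LC value is the same size as the median of all miRNAs in that comparison, was 0.54 with library size scaling and 0.18 without Lb replicate 2, and its adjusted p rose to between 0.0651 and 0.227 when any La library, Lb replicate 1 or Lb replicate 2 was left out. The LC adjusted p was also 0.0677 with RLE, 0.117 with DESeq2, 0.0950 with the exact test and 0.236 with all 12 libraries in 1 fit.

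ssc-miR-15b moved the other way in LC. It was at 676, 566 and 600 TPM in La and at 476, 594 and 447 TPM in Lb, with a log2 fold change of -0.45 ± 0.14 (adjusted p = 0.0187), although Lb replicate 2 lay within the range of La. The adjusted p was 0.0726 without La replicate 1, 0.0617 without La replicate 3 and 0.0513 without Lb replicate 1, and scaling by library size gave -0.25 (adjusted p = 0.147). Without Lb replicate 2 the log2 fold change was -0.69 (adjusted p = 0.00026). In HZ it was at 563, 529 and 589 TPM in Ha and at 871, 364 and 506 TPM in Hb, which enclosed the Ha values on both sides (log2 fold change 0.10, adjusted p = 0.772). In LC ssc-miR-15b and ssc-miR-16 thus had log2 fold changes of opposite sign, although the counts of miR-16 also include its copy outside SMC4.

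ssc-miR-15a and miR-15-x, which differ in the last bases, showed no age change past the test. ssc-miR-15a was at 78.5, 73.2 and 73.4 TPM in Ha, at 97.4, 28.4 and 59.1 TPM in Hb, at 88.9, 76.0 and 76.6 TPM in La and at 90.9, 97.6 and 81.5 TPM in Lb. miR-15-x was at 72.8, 64.9 and 68.1 TPM in Ha, at 130.3, 37.1 and 89.8 TPM in Hb, at 89.6, 79.5 and 76.1 TPM in La and at 98.7, 108.8 and 90.6 TPM in Lb. Their widest spread was in Hb, where replicate 1 was the highest and replicate 2 the lowest for both, as for ssc-miR-16 and ssc-miR-15b. Log2 fold changes with age were between -0.27 and 0.34 for these forms (adjusted p from 0.415 upward). At 30 days the log2 fold changes of LC over HZ were 0.25 ± 0.10 for ssc-miR-16 (adjusted p = 0.117, but 0.0406 without Ha replicate 3), 0.22 for ssc-miR-15b (adjusted p = 0.203) and 0.34 ± 0.12 for miR-15-x (adjusted p = 0.0864). The share of the miR-15 and miR-16 members in the listed counts was 0.301 ± 0.0105% in Ha and 0.394 ± 0.159% in Hb. It was 0.338 ± 0.0271% in La and 0.442 ± 0.0645% in Lb, and overlapped between the ages in HZ (exact permutation p = 0.4) and in LC (exact permutation p = 0.2).

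miR-16-x, whose end differs from ssc-miR-16, was high in Hb. It was at 14.1, 13.2 and 14.8 TPM in Ha and at 19.8, 40.9 and 33.2 TPM in Hb, without overlap. In LC it was at 15.5, 15.5 and 15.2 TPM in La and at 13.6, 15.4 and 13.2 TPM in Lb. It rose in HZ by a log2 fold change of 1.40 ± 0.41 (adjusted p = 0.0167), against -0.31 in LC (adjusted p = 0.205). In Hb vs. Lb it was called lower in Lb at -1.64 ± 0.44 (unadjusted p = 0.0024, adjusted p = 0.0626), and the interaction was -1.77 ± 0.47 (adjusted p = 0.0577, but 0.0118 with DESeq2, 0.046 with filterByExpr and 0.00111 without Hb replicate 1). Without Hb replicate 2, its highest library, the log2 fold change was 0.91 in Ha vs. Hb (adjusted p = 0.0263) and -0.98 in Hb vs. Lb (adjusted p = 0.156). The adjusted p in Ha vs. Hb was 0.0694 without Ha replicate 2, 0.0521 with library size scaling and 0.0503 with the replicate block. miR-15-y and miR-16-x were the 2 members called in Hb vs. Lb, 1 higher and 1 lower, against 8.45% and 8.38% of all tested. In TPM, 4 of the 14 were higher and 1 lower in every Lb library than in every Hb library, against 18.6% and 7.96% of all tested. By edgeR 0 of the 14 members had an adjusted p under 0.05 there, against 3.25% of all tested, and 2 an unadjusted p under 0.05, against 21.3% of all tested. DESeq2, edgeR's exact test and edgeR without Hb replicate 1 each gave 2 with an adjusted p under 0.05, against 8.31%, 6.51% and 10.5% of all tested.

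miR-15-y, a 3p strand, had the largest difference between the breeds of all members at 30 days. It was at 13.2, 15.1 and 16.4 TPM in Ha and at 53.0, 58.2 and 62.8 TPM in La. The log2 fold change was 2.05 ± 0.16 (adjusted p = 7.07e-07), and it kept between 1.92 and 2.13 when each library was left out. At 120 days it was at 48.6, 5.45 and 18.5 TPM in Hb and at 105.8, 63.0 and 55.8 TPM in Lb, and the groups again did not overlap. The log2 fold change of 1.54 ± 0.46 was called with an adjusted p of 0.0846, and with each library left out the adjusted p ranged from 0.00617 without Hb replicate 1 to 0.272 without Lb replicate 1. It was 0.144 without Hb replicate 2, 0.262 without Hb replicate 3, 0.0821 without Lb replicate 2 and 0.0316 without Lb replicate 3. The change with age was 0.63 ± 0.47 in HZ (adjusted p = 0.309) and 0.17 in LC (adjusted p = 0.537). In HZ this value rests on single libraries, being 1.06 (adjusted p = 0.00949) without Hb replicate 2 and -0.00075 without Hb replicate 1. Among the marker sums, those of epithelium (909, 309 and 601 TPM) and of miR-202 (17266, 9608 and 16387 TPM) had the same order of the Hb libraries, and the erythroid sum, at 2298, 1027 and 863 TPM, was also highest in replicate 1. Between Hb and Lb the miR-202 sum did not overlap either, and was higher in Lb at 17966 to 24405 TPM, and the endothelial sum was lower in Lb, at 8701 to 11242 TPM against 11458 to 12313 TPM in Hb. The part of these sums in the spread of miR-15-y or in its breed difference, or in the other differences between Hb and Lb, was not tested.

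The 5p strands did not differ between the breeds in this way, so the balance of the strands differed. miR-15-y is counted without a species or a letter, and the hairpin it comes from was not settled from the files. It was therefore set against the 5p strands of both miR-15b and miR-15a. Against miR-15b there were 2.34 to 2.86 counts of miR-15-y per 100 counts of the 5p strand in Ha, 1.499 to 5.58 in Hb, 7.84 to 10.5 in La and 10.6 to 22.2 in Lb. Every LC library was above every HZ library. The mean log2 difference of LC over HZ was 2.01, at 1.83 at 30 days and 2.19 at 120 days (exact permutation within ages, two-sided p = 0.005, the smallest possible; adjusted p = 0.0133 over 8 such tests of arm ratios). Against miR-15a the ratio was 8.71 to 11.6 per 100 in Ha, 8.33 to 21.4 in Hb, 29.7 to 41.1 in La and 30.5 to 55.8 in Lb, with a log2 difference of 1.66 (exact permutation p = 0.005, adjusted p = 0.0133). The age difference was 0.42 against miR-15b (exact permutation p = 0.21, adjusted p = 0.336) and 0.21 against miR-15a (exact permutation, adjusted p = 0.573). Against miR-15b it was 0.69 without Hb replicate 2 (exact permutation, adjusted p = 0.01) and 0.21 without Hb replicate 1.

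**Figure D3:**
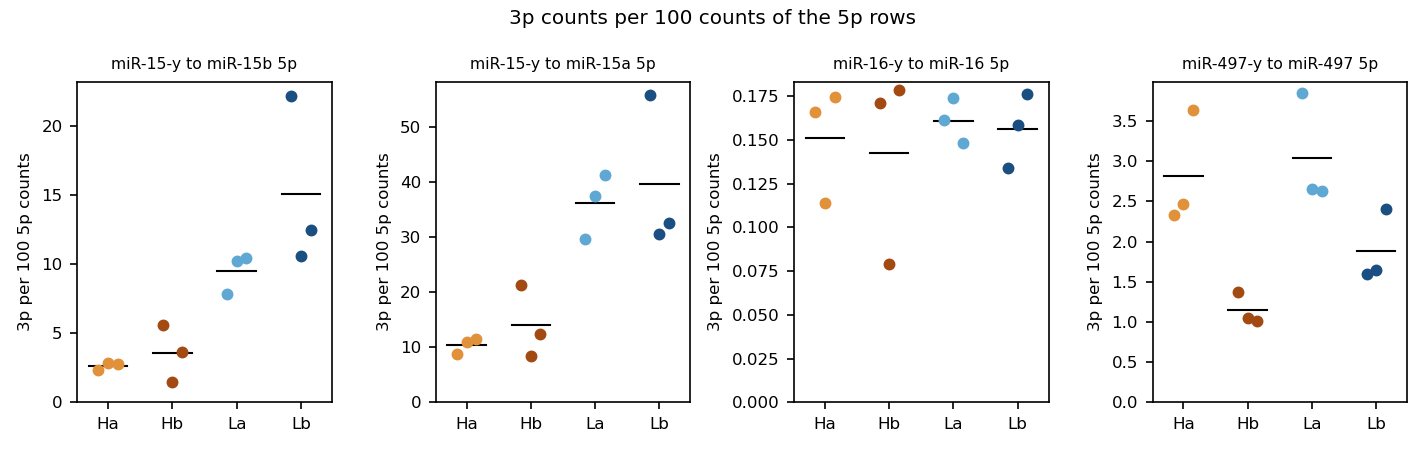
Counts of a 3p strand per 100 counts of the 5p strands, on the y axis from 0, in each library by group (Ha and Hb, HZ at 30 and 120 days; La and Lb, LC at 30 and 120 days); each point is a library and each bar the mean of 3. The miR-15-y ratios are higher in every LC library than in every HZ library, the miR-497 ratio is lower at 120 days, and the miR-16 ratio overlaps between all groups.

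The ratios of the other 3p strands showed no breed difference past the test. miR-16-y was scarce beside miR-16, at 0.0788 to 0.178 counts per 100 of the 5p strand over all libraries, and neither age nor breed passed the test (log2 differences -0.10 and 0.15, exact permutation, adjusted p = 0.66 each). miR-497-y stayed behind when miR-497 rose. There were 2.33 to 3.64 counts of it per 100 of the 5p strand in Ha and 1.010 to 1.37 in Hb, and 2.63 to 3.85 in La and 1.60 to 2.40 in Lb. The log2 difference of 120 over 30 days was -0.99, at -1.29 in HZ and -0.70 in LC (exact permutation within breeds, p = 0.005, adjusted p = 0.0133). The breed difference of 0.40 did not pass (exact permutation p = 0.065, adjusted p = 0.13) with all libraries and did so without Ha replicate 3. miR-497-y itself ranged over 1.38 to 6.05 TPM, and its log2 fold changes with age were 0.78 in HZ (adjusted p = 0.193) and 0.32 in LC (adjusted p = 0.411). Between the breeds at 30 days it overlapped, at 1.38 to 2.87 TPM in Ha and 2.75 to 4.97 TPM in La, with a log2 fold change of 0.90 ± 0.33 (adjusted p = 0.0922), which was 1.25 (adjusted p = 0.00289) without Ha replicate 3. It just passed the fold threshold without La replicate 2 or 3 (adjusted p = 0.101 and 0.128). At 120 days its TPM did not overlap, at 2.32 to 3.91 in Hb and 4.30 to 6.05 in Lb, with a fitted log2 fold change of 0.33 ± 0.42 (adjusted p = 0.678).

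The ends of the 5p strands also shifted in share. These ratios of a longer or altered form to the pig-named sequence were chosen after the values had been seen. miR-15-x had 88.8 to 92.8 counts per 100 of ssc-miR-15a in Ha and 130.8 to 152.1 in Hb, and 99.4 to 104.6 in La and 108.6 to 111.4 in Lb. The log2 difference with age was 0.36 (exact permutation within breeds, p = 0.005, adjusted p = 0.0133 over 8 tests), at 0.60 in HZ and 0.12 in LC. The Hb libraries were close here, although their levels of either form were far apart.

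miR-195-x had 3.91 to 5.10 counts per 100 of ssc-miR-195 in Ha, 5.17 to 8.46 in Hb, 4.94 to 5.08 in La and 5.17 to 6.16 in Lb, with a log2 difference with age of 0.37 (exact permutation, adjusted p = 0.0133). That adjusted p was 0.0667 when any 1 of the Ha libraries was left out. miR-497-x had 5.79 to 5.92 counts per 100 of ssc-miR-497 in Ha, 4.30 to 6.13 in Hb, 7.07 to 8.004 in La and 7.77 to 9.98 in Lb, so this form separated the breeds (log2 difference 0.58, exact permutation, adjusted p = 0.0133) and not the ages. miR-16-x had 0.709 to 0.740 counts per 100 of ssc-miR-16 in Ha, 0.657 to 0.755 in La and 0.394 to 0.525 in Lb, but 0.538, 2.53 and 1.23 in the Hb libraries. Neither age nor breed passed the test for it.

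**Figure D4:**
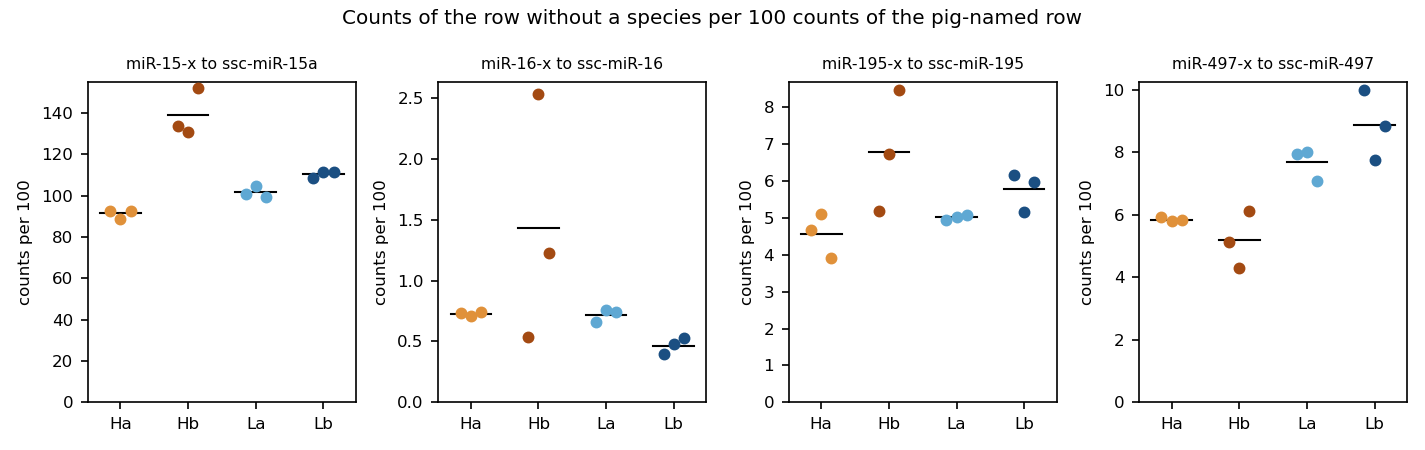
Counts of the form without a species in its name per 100 counts of the pig-named form, on the y axis from 0, in each library by group (Ha and Hb, HZ at 30 and 120 days; La and Lb, LC at 30 and 120 days); each point is a library and each bar the mean of 3. miR-15-x is highest in Hb, at 130.8 to 152.1 per 100, miR-497-x is higher in LC, and 1 Hb library of miR-16-x stands at 2.53.

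The seed AGCAGCA was held by 15 listed miRNAs, of which 11 were family members. The other 4 were ssc-miR-424-5p, miR-424-x, miR-322-x and miR-457-z, of which the first 3 are named for X-linked relatives of the family. Summed over all 15, the seed stood at 4074 ± 240 TPM in Ha, 5088 ± 1426 TPM in Hb, 4400 ± 547 TPM in La and 6096 ± 616 TPM in Lb (SD, n = 3 each). About the same part of it was miR-16 in each group, with means of 47.8%, 52.0%, 49.6% and 50.2% of the counts in Ha, Hb, La and Lb. miR-195 took 7.64 ± 1.56% in Ha and 18.4 ± 6.87% in Hb, and 10.7 ± 0.105% in La and 17.9 ± 0.255% in Lb. miR-497 went from 1.74 ± 0.233% to 5.80 ± 2.36% in HZ and from 2.67 ± 0.184% to 4.49 ± 0.265% in LC. Hb replicate 2 raised both Hb means, at 26.1% for miR-195 and 8.52% for miR-497. Hb replicates 1 and 3 were at 12.96% and 16.2% for miR-195, and at 4.36% and 4.504% for miR-497. The Lb libraries were at 17.6% to 18.1% for miR-195 and at 4.18% to 4.65% for miR-497. miR-15b took 13.8% in Ha and 11.08% in Hb, and between 13.4% and 14.6% in the La libraries against 7.20% to 9.48% in the Lb libraries. miR-424 and miR-322 together took 25.5 ± 2.68% in Ha and 9.97 ± 2.32% in Hb, against 19.4 ± 2.68% in La and 15.99 ± 3.03% in Lb. Shares of a sum are not independent, so a gain of 1 miRNA lowers the others.

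**Figure D5:**
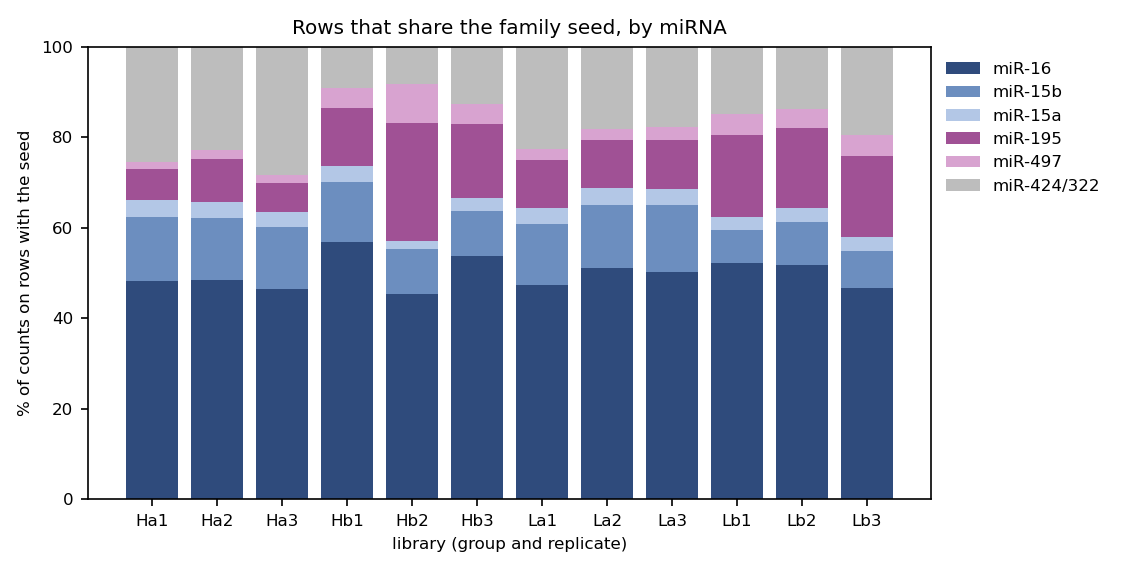
Share of each miRNA in the counts of all listed miRNAs with the seed, in percent on the y axis, for each of the 12 libraries (group and replicate on the x axis); the colours of each bar add up to 100%. miR-16 is the largest part of every bar, the miR-195 and miR-497 parts are larger at 120 days, and the miR-424 and miR-322 part is smallest in Hb.

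The relatives were taken by name as miR-424, miR-322, miR-503, miR-103 and miR-107, whose usual strands share the whole or most of this seed. Their 16 listed forms include opposite strands with other seeds (ssc-miR-424-3p, miR-424-y, miR-322-y, miR-103-x and miR-107-x). In Ha vs. Hb, 4 of the 16 (ssc-miR-503, miR-503-x, miR-424-x and the 3p strand miR-424-y) were called lower, each with an adjusted p under 0.05, against 14.4% of all tested and 11.3% with an adjusted p as well. ssc-miR-424-5p, the most abundant miRNA with the family's own seed outside the family, went from 877 to 1213 TPM in Ha to 301 to 638 TPM in Hb, without overlap (log2 fold change -0.95 ± 0.26, adjusted p = 0.0125). ssc-miR-503, which lies in the same cluster as miR-424 in mammals, fell from 232 ± 28.6 to 100.2 ± 27.2 TPM (log2 fold change -1.12 ± 0.25, adjusted p = 0.00385). In La vs. Lb the log2 fold changes were -0.02 for ssc-miR-424-5p and 0.02 for ssc-miR-503. miR-503-x fell in both breeds without overlap, from 70.9 to 104.8 TPM in Ha to 31.0 to 43.5 TPM in Hb (log2 fold change -1.10 ± 0.29, adjusted p = 0.00938) and from 76.5 to 90.5 TPM in La to 44.5 to 57.2 TPM in Lb (-0.91 ± 0.15, adjusted p = 0.000414). Of the 16, 4 had an adjusted p under 0.05 there, 3 higher and miR-503-x lower, against 26.8% and 13.4% of all tested, each with an absolute log2 fold change below 1. The interaction was 1.08 ± 0.28 for ssc-miR-503 (adjusted p = 0.0547) and 0.87 ± 0.30 for ssc-miR-424-5p (adjusted p = 0.111), neither under 0.05. ssc-miR-103, the most abundant relative, had a log2 fold change of -0.02 in HZ and 0.52 in LC (adjusted p = 0.00429).

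The miRNAs whose log2(TPM + 1) followed a member most closely over the 12 libraries were sought among 427 miRNAs outside the family. ssc-miR-16 was closest to ssc-miR-628-5p (Pearson r = 0.939), ssc-miR-6516 (0.935), miR-335-y (0.934), ssc-miR-30b-5p (0.916) and ssc-miR-660 (0.913). ssc-miR-195 was closest to 4 miRNAs that the authors predicted (0.903 to 0.914) and to miR-449-y (0.909). miR-15-y was closest to miR-1260-z (0.954), ssc-miR-18a (0.877), ssc-miR-545-3p (0.872), ssc-miR-4331-5p (0.844) and miR-106-x (0.816). None of the 5 miRNAs nearest to one of these members was among the 5 nearest to another. The points share library, age and breed, and the values are descriptions only.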

How the data were processed

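The members, the relatives, the marker lists and the rule for naming were chosen with earlier results of these data known. Every member is accounted for, and values of each library are given for the most abundant form of each miRNA and strand, and for any called form, averaging 10 TPM or more in any group. The authors removed adaptors, low-quality and short reads with fastp, and tags matching other non-coding RNAs, exons, introns or repeats of Sscrofa11.1. The remaining tags were aligned to mature miRNAs in miRBase by bowtie, and miRDeep2 was used for counting. They deposited raw counts of tags for each miRNA and library, with no normalization, and the same values as TPM, which scales each library to a fixed total of tags. In their order of annotation, existing and known miRNAs came before other non-coding RNAs, and predicted miRNAs came last. Removal of tags in exons and introns could lower miRNAs inside genes. By position these include miR-15b and a copy of miR-16 in SMC4, and miR-195 and miR-497 in LOC102161115. Any such loss, and whether it was alike in every library, was not tested.

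The listed counts, which were 86.9 to 89.4% of the TPM total, were tested with edgeR 4.0.16 in R 4.3.3 (glmQLFit and glmQLFTest, TMM, at least 1 count in the 6 libraries compared, 1 fit for each comparison). The interaction was fitted over all 12 libraries. The fits were also run on simulated data with 200 changed miRNAs and the same dispersion for every miRNA and library. Those data did not hold the spread among the Hb libraries, so they do not cover it. Ratios of strands and ends added 0.5 counts to each side, and the test took all 400 exchanges of libraries within breed or age. Same-numbered libraries were not paired in the fits, since no comparison had all 3 of their correlations above 0.1. In Hb vs. Lb the correlations were all positive, at 0.113, 0.011 and 0.173. Such a rule cannot exclude a batch shared by same-numbered libraries. Alternatives were RLE, library size, the exact test and the robust option of edgeR, DESeq2 1.42.0, filterByExpr, all 12 libraries in 1 fit, merged sequences, a replicate block, each library left out and, for ratios, 5 added counts. Predicted hairpins and mRNA were not analysed here.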

Additional observations from a re-analysis of the deposited data

How the results depend on the processing

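In HZ the rise with age of the miR-195 and miR-497 5p strands, and at 30 days the higher miR-15-y in LC, were called under each alternative and without each library. The rare miR-195-z was the exception. Among the counts for all miRNAs, filterByExpr, which tests fewer miRNAs, called 352 with age in HZ (570 in the main edgeR fit) and 257 in LC (464). Between the breeds it called 62 at 30 days (121) and 145 at 120 days (243). With adjusted p it called 256 with age in LC (413), 42 between the breeds at 30 days (67) and 59 for the interaction (19). In Ha vs. La 27 were called with an adjusted p under 0.05 with all 12 libraries in 1 fit. In Hb vs. Lb the number was 9 with library size, 105 with DESeq2, 93 with the exact test, 138 with all 12 libraries and 133 with the replicate block (47 in the main edgeR fit). For the interaction the adjusted count was 36 with RLE, 0 with library size, 101 with DESeq2 and 11 with identical sequences merged. Same-numbered libraries had correlations from -0.31 to 0.17, which cannot exclude a shared batch.

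Merging the forms of a strand left 8 members. Of these, 2 were called in Ha vs. Hb (39.7% of all tested), and both had an adjusted p under 0.05 (31.8% of all tested). The main edgeR fit called 6 of 14, 5 of them with an adjusted p under 0.05. Merged members called in the other tests were 2 with age in LC (32.2%), 1 between the breeds at 30 days (9.43%), 1 at 120 days (16.8%) and 1 for the interaction (16.9%). Of all 14, in La vs. Lb 2 were called, with and without adjustment, with RLE, DESeq2 and all 12 libraries (4 otherwise). The shares of all tested were 32.4%, 26.4% and 32.2% without adjustment and 28.8%, 23.2% and 26.8% with it. In Hb vs. Lb 2 were called with an adjusted p under 0.05 with DESeq2, the exact test, all 12 libraries and the replicate block (0 otherwise), against 7.27%, 6.44%, 9.56% and 9.21%. For the interaction 1 was called with library size (3 otherwise), against 18.7%. With an adjusted p under 0.05, 2 were called with DESeq2 (6.96%) and 1 with filterByExpr (6.79%), against 0 otherwise.

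With all libraries kept, directions reversed for the values below, none of which was called. With forms of a strand merged, ssc-miR-15a was at 0.063 with age in HZ, 0.056 in LC and -0.074 for the interaction. With identical sequences merged it was at 0.019 in La vs. Lb. Scaling by library size, which moves the median of all miRNAs from 0.32 to 0.54 in La vs. Lb and from 0.06 to 0.32 in Hb vs. Lb, gave 0.20 for ssc-miR-15a in La vs. Lb, 0.21 for ssc-miR-16, 0.35 for ssc-miR-195 and 0.12 for miR-195-x in Hb vs. Lb, and 0.059 for the interaction of ssc-miR-16. In Hb vs. Lb ssc-miR-195 was at 0.0035 with all 12 libraries and 0.0091 with the replicate block, miR-15-x at -0.025 with filterByExpr, and miR-16-y at -0.0052 with RLE, -0.0099 with DESeq2 and -0.041 with filterByExpr. As shares of the authors' TPM the family held 0.305% in Ha and 0.360% in La, and without the 10 most abundant miRNAs 0.818% and 1.12% in HZ and 1.002% and 1.13% in LC at 30 and 120 days. With 5 counts added, the age difference of the miR-497-x ratio was -0.057. The adjusted p of miR-16-x in Ha vs. Hb was 0.0521 with library size and 0.0503 with the replicate block. The block ended no other call of a member that had an adjusted p under 0.05, and in Hb vs. Lb gave one to miR-15-y and miR-16-x. In La vs. Lb the adjusted p of ssc-miR-16 was 0.0677 with RLE, 0.117 with DESeq2, 0.0950 with the exact test and 0.236 with all 12 libraries. The cause of these shifts was not tested.

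With each library left out, the members called in La vs. Lb numbered 2 to 5 (2 to 4 with adjusted p), against 29.05% to 33.3% of all tested (22.9% to 30.5%). In Hb vs. Lb they numbered 1 to 2 (0 to 2), against 12.7% to 21.1% (0.833% to 10.2%), and for the interaction 1 to 3 (0 to 3), against 14.6% to 21.4% (0% to 10.7%), and the adjusted counts over all miRNAs were 52 to 111 in Ha vs. La, 12 to 148 in Hb vs. Lb and 0 to 156 for the interaction. Log2 fold changes that changed sign ranged in Ha vs. Hb from -0.00075 to 1.06 for miR-15-y and from -1.55 to 0.45 for miR-16-z, and in Ha vs. La from -2.34 to 0.19 for miR-16-z, which lies near the counting limit. In La vs. Lb they ranged from -0.18 to 0.083 for ssc-miR-15a, -0.064 to 0.20 for miR-15-x and -0.12 to 0.38 for miR-15-y. In Hb vs. Lb they ranged from -0.12 to 0.058 for ssc-miR-16, -0.29 to 0.37 for ssc-miR-195, -0.67 to 0.021 for ssc-miR-497, -0.16 to 0.21 for miR-15-x, -0.63 to 0.10 for miR-195-x, -0.26 to 0.22 for miR-16-y and -0.82 to 0.20 for miR-195-z. For the interaction miR-15-y ranged from -0.84 to 0.23. The age difference ranged from 0.21 to 0.69 in the ratio of miR-15-y to miR-15b, where it passed without Hb replicate 2, and from -0.20 to 0.087 in that of miR-16-y. The breed difference ranged from -0.036 to 0.25 for miR-16-y and from 0.30 to 0.49 for miR-497-y. Among the end ratios, the age difference ranged from -0.23 to 0.32 for miR-16-x and from -0.063 to 0.065 for miR-497-x, and the breed difference from -0.12 to 0.053 for miR-195-x. Members under about 1 TPM, miR-16-z and miR-195-z, are limited by depth.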
